A study of Mus musculus with 6 samples.

Results

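The genes examined were *Ehhadh*, *Acaa1a*, *Acaa1b*, *Acot1*, *Acot2*, *Acot3*, *Acot4*, *Crot* and *Pex11a*, which encode enzymes of peroxisomal fatty acid oxidation, acyl-CoA thioesterases and a membrane protein of the peroxisome. They were chosen by name, with earlier results of these data known, and are 9 of the 54115 genes quantified. For each gene the estimated reads of all its transcripts were summed and scaled to library size. These values were compared between wild-type (WT) mice and *Sirt7* knockout (KO) mice. The data were RNA-seq libraries from the whole liver of male mice aged 24 months that had been fasted for 16 h before the liver was taken, with 3 WT mice and 3 *Sirt7* KO mice. The mice of both groups carried the C57BL/6J background, were bred as littermates from heterozygous parents, and the KO mice carried a germline knockout of *Sirt7*, which encodes a nuclear protein deacylase. Each library was made from 1 mouse.

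Peroxisomes shorten very long-chain and branched fatty acids that mitochondria handle poorly. Inside peroxisomes the bifunctional enzyme encoded by *Ehhadh* hydrates and dehydrogenates acyl chains, and the thiolases encoded by *Acaa1a* and *Acaa1b* cut off acetyl-CoA. The shortened chain leaves as a carnitine ester made by the octanoyltransferase encoded by *Crot*, or as a free acid released by a thioesterase. In the rodent liver many of these genes are switched on in fasting by the nuclear receptor PPAR-alpha, and *Pex11a* takes part in the elongation and division of peroxisomes.

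Library depth was 10608035 to 13424776 reads in the WT mice and 9994860 to 11107388 reads in the *Sirt7* KO mice. The full-length protein-coding *Sirt7* transcript held 381 to 429 reads in the WT mice and 78 to 135 reads in the *Sirt7* KO mice, and the sum over all *Sirt7* transcripts was 45.5 to 55.2 against 28.6 to 41.7 CPM (counts per 1000000 reads after scaling). Neither measure overlapped between the groups, in the direction of the labels, but reads were not lost completely and the sum over transcripts differed by a log2 fold change of only −0.41 ± 0.18 (edgeR adjusted p = 0.403). Hepatocyte markers led the marker lists in every library, with a summed level of 54988 to 68151 CPM over 8 genes. Of the other marker lists, that of erythroid cells did not overlap between the groups, at 208 to 262 CPM in WT and 302 to 545 CPM in *Sirt7* KO mice, and the part of this difference in the results was not tested. WT mouse 1 and *Sirt7* KO mouse 1 stood apart from the other two mice of their group. The mean chi-square per gene against those mice was 65.2 and 76.5 for WT mouse 1 but 26.3 between WT mice 2 and 3, and it was 60.1 and 48.1 for *Sirt7* KO mouse 1 but 16.9 between *Sirt7* KO mice 2 and 3. The results are therefore given with and without these mice where they change. Reads from whole liver cannot tell fewer cells of a type from less RNA per cell.

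Several of the genes are near-identical neighbours, and their sequences show how far reads of 75 bases can be assigned. *Acaa1a* (chromosome 9, 119339676 to 119350299, forward strand, GRCm38) and *Acaa1b* (chromosome 9, 119148023 to 119157093, reverse strand) lie 182.6 kb apart, and their coding sequences of 1272 bases were 96.5% identical. *Acot2* (chromosome 12, 83987861 to 83993873), *Acot1* (84009490 to 84018371), *Acot4* (84038379 to 84048601) and *Acot3* (84052144 to 84060402) follow each other on the forward strand within 72.5 kb. The *Acot1* and *Acot2* coding sequences were 95.6% identical, while *Acot3* and *Acot4* were only 76.0% identical. The stretches below are the coding windows of 75 bases with the most differences in each close pair, and they are shown because a read from such a window can be told from its paralog. Capitals mark the bases that differ, 11 in the *Acaa1* pair (exon 6 of both genes) and 14 in the *Acot1* and *Acot2* pair (exon 3 of both genes), all read from GRCm38 on the strand of the gene.
Acaa1a, chr9:119346470-119346544, forward strand: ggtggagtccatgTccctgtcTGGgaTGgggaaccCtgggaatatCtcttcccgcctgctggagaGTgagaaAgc
Acaa1b, chr9:119151840-119151914, reverse strand: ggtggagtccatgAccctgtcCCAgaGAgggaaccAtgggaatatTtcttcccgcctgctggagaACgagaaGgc
Acot1, chr12:84016931-84017005, forward strand: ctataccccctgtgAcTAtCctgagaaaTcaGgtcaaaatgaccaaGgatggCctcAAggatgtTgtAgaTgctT
Acot2, chr12:83992653-83992727, forward strand: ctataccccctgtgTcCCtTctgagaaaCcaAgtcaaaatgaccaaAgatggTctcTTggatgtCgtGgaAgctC
Elsewhere the pairs hold long identical runs. Of all coding windows of 75 bases, 29.9% of those of *Acaa1b* occurred unchanged in *Acaa1a*, 36.7% of those of *Acot1* occurred in *Acot2*, and 5.8% of those of *Acot3* occurred in *Acot4*. Reads from the identical windows were divided by the authors' quantifier, so the split within the *Acaa1* pair and within the *Acot1* and *Acot2* pair is less certain than the pair's sum. *Acot3* was closer to *Acot1* (84.0% identical, longest identical coding run 203 bases) and to *Acot5* (85.8%, 195 bases) than to *Acot4*. Reads from within those runs were divided in the same way.

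All 9 genes passed the filter on low counts, and all 9 had a lower mean in *Sirt7* KO than in WT liver. The estimated log2 fold change (*Sirt7* KO over WT) ran from −2.98 for *Acot3* to −0.19 for *Crot*, with a median of −1.57, against a median of −0.01 over all 12524 genes tested, of which 50.7% lay below 0. None of the 9 was called by edgeR's quasi-likelihood test at an adjusted p under 0.05 with a fold change over 1.5, a rule that called 25 genes in all (0.2% of those tested, 19 higher and 6 lower), and the members' adjusted p ran from 0.322 to 0.914. At an unadjusted p under 0.05, 3 of the 9 were lower (*Acot4*, *Acaa1a* and *Acot3*), where 4.73% of all genes were lower at that threshold. In 5 of the 9 (*Acaa1a* and *Acot1* to *Acot4*) the highest *Sirt7* KO value lay under the lowest WT value, against 8.09% of all genes tested. An exact permutation test over 3 against 3 mice cannot go below 0.1 two-sided, and these 5 genes reached that value. The members were chosen with earlier results of these data known, so the shares of all genes are given for scale only.

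**Figure D1:**
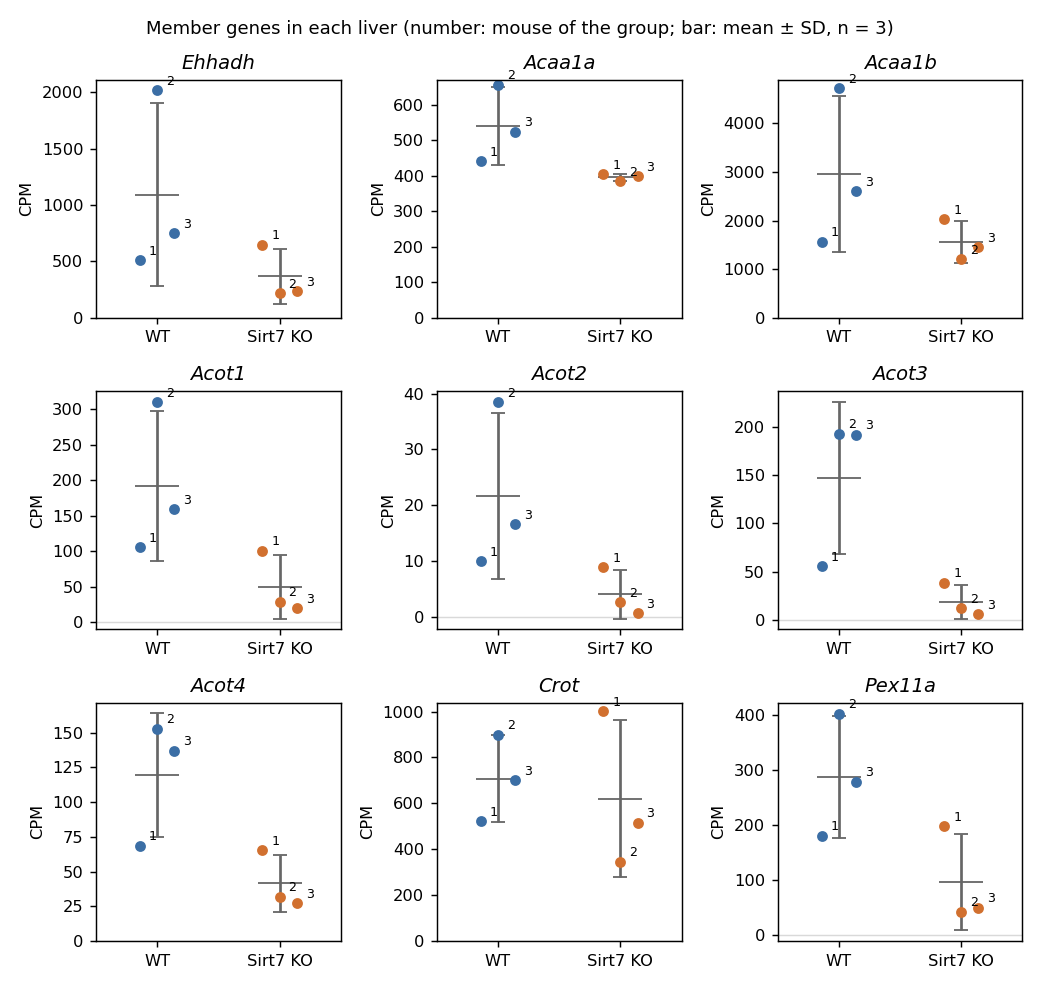
Level of each of the 9 genes in CPM (linear axis) in the 3 WT and 3 *Sirt7* KO livers; points are mice with their number, horizontal bars are group means and whiskers 1 SD. *Sirt7* KO mouse 1 is the highest of its group in all 9 panels, and in 5 panels the groups do not overlap.

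The *Acot* cluster held the 3 lowest ratios among the members, those of *Acot3*, *Acot2* and *Acot1*. *Acot3*, whose product hydrolyses long-chain acyl-CoA inside peroxisomes, stood at 55.8, 193 and 192 CPM in WT mice 1 to 3 and at 38.3, 12.1 and 5.49 CPM in *Sirt7* KO mice 1 to 3. The groups did not overlap, and the nearest mice were WT mouse 1 and *Sirt7* KO mouse 1, 1.46-fold apart. The log2 fold change was −2.98 ± 0.97 (SE), a WT level 7.87-fold that of the *Sirt7* KO, with an unadjusted p of 0.0335 and an adjusted p of 0.392 by edgeR. *Acot4*, whose product acts on succinyl-CoA and other dicarboxylic acyl-CoA in peroxisomes, was at 68.6, 153 and 137 CPM in WT and 65.3, 31.9 and 27.1 CPM in *Sirt7* KO mice. Again the groups did not overlap, although WT mouse 1 exceeded *Sirt7* KO mouse 1 by only 1.05-fold. Its log2 fold change was −1.53 ± 0.46 (edgeR adjusted p = 0.322), and it reached −2.04 ± 0.45 once the changing mean transcript length was taken into account (adjusted p = 0.227). That length depends on short isoforms with few reads, such as 1 of 647 bases with 15.3 to 167.9 estimated reads a mouse. The transcript of 6203 bases held 90.03% to 95.08% of the *Acot4* reads in every mouse. DESeq2 without length offsets gave −1.53 ± 0.32 (DESeq2 adjusted p = 0.000577). DESeq2 with such length offsets, the type of test described for this study, called 2 of the 9 members lower, *Acot3* (adjusted p = 0.0423) and *Acot4* (adjusted p = 3.52e-05), where it called 0.542% of all genes lower. Over all settings tried, the adjusted p ran from 0.0423 to 0.773 for *Acot3* and from 3.52e-05 to 0.691 for *Acot4*.

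*Acot1* and *Acot2* encode the cytosolic and the mitochondrial long-chain acyl-CoA thioesterase. *Acot1* measured 106, 310 and 159 CPM in WT and 101, 29.1 and 19.7 CPM in *Sirt7* KO mice. *Sirt7* KO mouse 1 nearly reached WT mouse 1, while the other two *Sirt7* KO mice were far below every WT mouse, and the log2 fold change was −1.94 ± 0.83 (edgeR adjusted p = 0.501). *Acot2* was the scarcest member, at 9.99, 38.5 and 16.6 CPM in WT and 8.88, 2.54 and 0.578 CPM in *Sirt7* KO mice, and in *Sirt7* KO mouse 3 it rested on 6 reads. Its mice kept the order of *Acot1*, and its log2 fold change was −2.42 ± 1.04 (edgeR adjusted p = 0.494). With the reads of both genes summed, the log2 fold change was −1.98 ± 0.86 (edgeR adjusted p = 0.504), close to that of the more abundant *Acot1*.

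The genes of the peroxisomal oxidation steps had log2 fold changes from −1.57 for *Ehhadh* to −0.45 for *Acaa1a*. *Ehhadh* (chromosome 16, 21761287 to 21787807, reverse strand) was at 508, 2015 and 747 CPM in WT and 646, 220 and 234 CPM in *Sirt7* KO mice. Here the groups overlapped, since *Sirt7* KO mouse 1 exceeded WT mouse 1, and the log2 fold change of −1.57 ± 0.76 had an edgeR adjusted p of 0.545. *Acaa1b*, the most abundant member, measured 1565, 4720 and 2603 CPM in WT and 2027, 1205 and 1447 CPM in *Sirt7* KO mice, with the same overlap of mouse 1 and a log2 fold change of −0.93 ± 0.41 (edgeR adjusted p = 0.464). Its paralog *Acaa1a* varied little, from 441, 657 and 524 CPM in WT to 405, 385 and 398 CPM in *Sirt7* KO mice. The *Acaa1a* groups did not overlap, and the *Sirt7* KO mice had a SD of only 10.4 CPM (n = 3), and a small log2 fold change of −0.45 ± 0.17 had an unadjusted p of 0.0257 (edgeR adjusted p = 0.361). The summed reads of the thiolase pair gave −0.84 ± 0.34 (edgeR adjusted p = 0.407).

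*Pex11a* and *Crot* completed the set. *Pex11a* (chromosome 7, 79735957 to 79743131, reverse strand) stood at 180, 402 and 278 CPM in WT and 197, 41.5 and 49.1 CPM in *Sirt7* KO mice. *Sirt7* KO mouse 1 was inside the WT range, and the other two were at less than the lowest WT value, giving a log2 fold change of −1.58 ± 0.77 (edgeR adjusted p = 0.554). *Crot* (chromosome 5, 8966033 to 8997324, reverse strand) was at 522, 899 and 702 CPM in WT and 1002, 346 and 515 CPM in *Sirt7* KO mice. It was the only member whose highest value came from a *Sirt7* KO mouse, and its log2 fold change of −0.19 ± 0.41 (edgeR adjusted p = 0.914) was smaller than its own error and turned to 0.02 without WT mouse 2 and to 0.10 without *Sirt7* KO mouse 2.

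Compared per unit of length, in TPM (transcripts per 1000000), the members covered a wide range. In WT liver *Acaa1b* led with a mean level of 1741 ± 854 TPM (SD, n = 3), followed by *Ehhadh* (327 ± 227), *Acaa1a* (297 ± 40.6), *Crot* (216 ± 45.1), *Pex11a* (183 ± 50.8), *Acot1* (173 ± 83.1), *Acot3* (72.2 ± 36.3), *Acot4* (43.1 ± 16.3) and *Acot2* (9.12 ± 5.84). The ranges over mice of neighbours in this order overlapped for *Ehhadh* and *Acaa1a*, for *Crot* and *Pex11a*, for *Pex11a* and *Acot1*, and for *Acot3* and *Acot4*. In *Sirt7* KO liver the mean level of *Acaa1b* was 905 ± 221 TPM, and *Acaa1a* (210 ± 16.9) and *Crot* (182 ± 92.7) came before *Ehhadh* (107 ± 66.1). *Pex11a* (53.4 ± 42.3) and *Acot1* (44.4 ± 43.0) followed, and *Acot4* (10.1 ± 4.21), *Acot3* (8.68 ± 7.5) and *Acot2* (1.62 ± 1.71) were lowest, and only *Acaa1b* was separated from its neighbour by the ranges over mice.

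The members shared a pattern over mice that the genotype alone did not describe. WT mouse 1 was the lowest and WT mouse 2 the highest WT mouse in all 9 genes, and *Sirt7* KO mouse 1 was the highest of its group in all 9, an arrangement found in 6.2% of all genes tested. As the mean over the members of log2(CPM + 0.5) minus each gene's own mean, the level was 0.09, 1.48 and 0.83 in WT mice 1 to 3 and 0.18, −1.17 and −1.41 in *Sirt7* KO mice 1 to 3. *Sirt7* KO mouse 1 thus had nearly the member level of WT mouse 1. *Sirt7* KO mice 2 and 3 were below every WT mouse in all 9 genes, an arrangement held by 18.4% of all genes once *Sirt7* KO mouse 1 was left out. Without that mouse the log2 fold changes were −4.07 ± 0.92 for *Acot3*, −3.81 ± 1.02 for *Acot2*, −2.97 ± 0.63 for *Acot1*, −2.66 ± 0.37 for *Pex11a*, −2.26 ± 0.79 for *Ehhadh* and −2.02 ± 0.38 for *Acot4*. In that fit 1 of the 9 was called lower (*Pex11a*, edgeR adjusted p = 0.0266, against 0.0266 to 0.841 over all settings), where 1.04% of genes were, and 7 of the 9 were lower at an unadjusted p under 0.05, where 8.12% of genes were. Leaving out WT mouse 1 called no member by edgeR, with 4 lower at an unadjusted p under 0.05, where 3.69% of genes were, and 8 without overlap between groups, where 12.5% of genes were lower without overlap, and the log2 fold changes then ran from −3.37 for *Acot3* to −0.37 for *Crot*. Without WT mouse 2 every estimate was nearer 0 than with all mice, and no member was called by edgeR. The log2 fold changes were then −2.73 for *Acot3*, −1.72 for *Acot2*, −1.41 for *Acot1*, −1.31 for *Acot4* and −1.26 for *Pex11a*. They were −0.78 for *Ehhadh*, −0.42 for *Acaa1b*, −0.28 for *Acaa1a* and 0.02 for *Crot*.

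**Figure D2:**
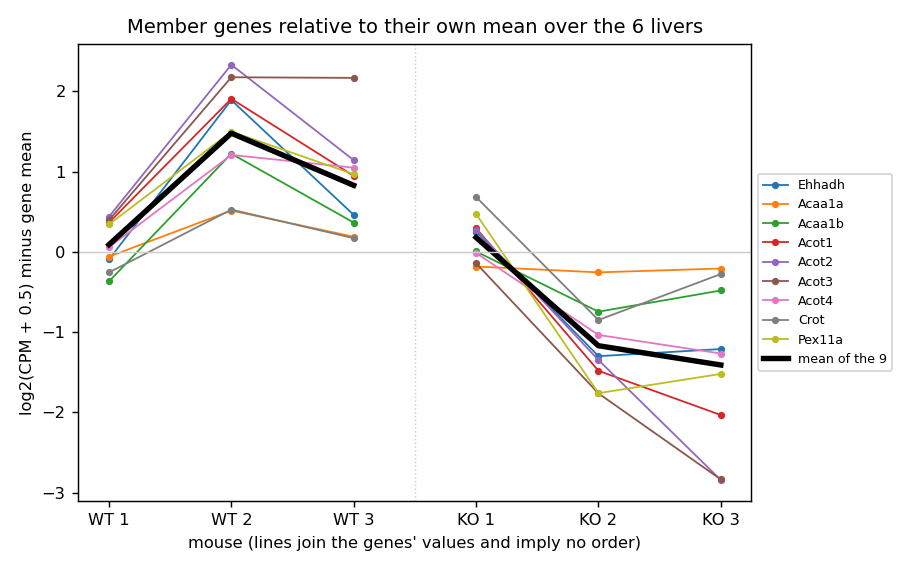
Centred log2(CPM + 0.5) of the 9 genes (coloured lines) and their mean (black) in each of the 6 livers; lines join the values of a gene within a group and imply no order. The mean of the 9 genes is 0.09 in WT mouse 1 and 0.18 in *Sirt7* KO mouse 1, and it is −1.17 and −1.41 in *Sirt7* KO mice 2 and 3.

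**Figure D3:**
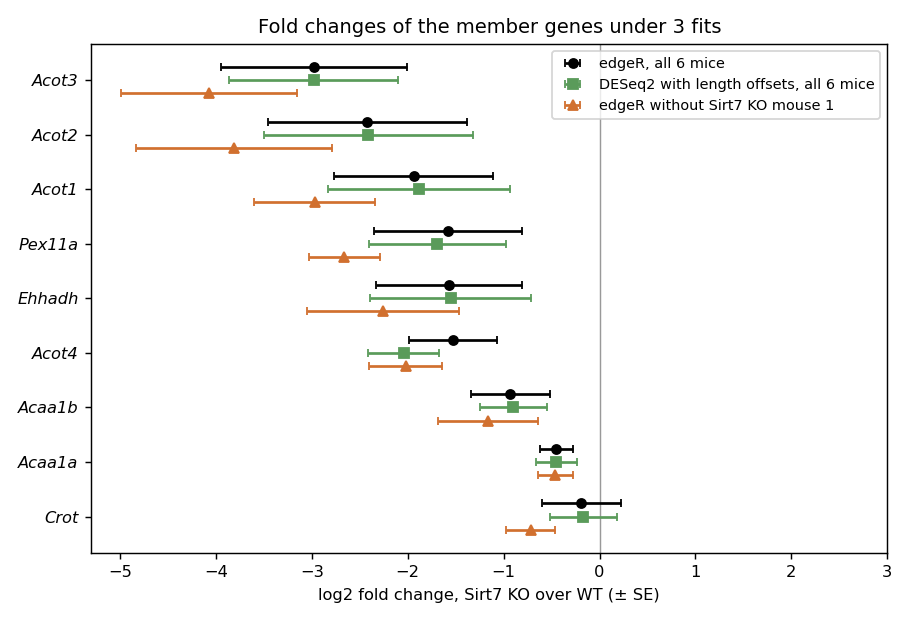
Log2 fold change (*Sirt7* KO over WT) with its SE for each gene by edgeR on all mice (circles), by DESeq2 with length offsets (squares) and by edgeR without *Sirt7* KO mouse 1 (triangles). All estimates are below 0, from −0.17 for *Crot* to −4.07 for *Acot3*, and leaving out *Sirt7* KO mouse 1 moves *Acot3* from −2.98 to −4.07 but *Acaa1a* only from −0.45 to −0.46.

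The spread between mice was wide for most members. edgeR estimated a common biological coefficient of variation of 26.4%, whereas *Acot3* had a SD of 78.9 CPM around a WT mean of 147 and of 17.3 CPM around a *Sirt7* KO mean of 18.6 (n = 3 each). The quasi-likelihood fit used here keeps highly variable genes from pulling its estimate of the spread, and such genes are then given larger errors. Without this robust option, an alternative chosen after the values were seen, 8 of the 9 members (all but *Crot*) were lower at an unadjusted p under 0.05, where 4.78% of all genes were, and still none was called, the smallest adjusted p being 0.168 for *Acot3*.

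Of the 3 paralog pairs, *Acot3* and *Acot4* had the largest difference in how their reads were shared. *Acot4* took 55.1%, 44.3% and 41.6% of the reads of that pair in WT mice 1 to 3 and 63.1%, 72.6% and 83.2% in *Sirt7* KO mice 1 to 3, so the share was higher in every *Sirt7* KO mouse by a mean of 26.0 percentage points (two-sided exact permutation p = 0.1, the smallest possible, and 0.15 adjusted over the 3 pairs). *Acot2* took 9.68% ± 1.24 of the *Acot1* and *Acot2* reads in WT and 6.34% ± 3.07 in *Sirt7* KO mice (SD, n = 3, exact permutation p = 0.1, adjusted 0.15). For *Acaa1b* the share of the thiolase reads was 83.0% ± 4.88 in WT and 79.2% ± 3.83 in *Sirt7* KO mice, with overlapping groups (exact permutation p = 0.5, also 0.5 adjusted). These shares carry counting and assignment error that was not modelled.

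On both sides of the cluster on chromosome 12 the neighbouring genes were scarce. *Riox1*, which lies 37.3 kb before the start of *Acot2*, was at 8.47, 6.44 and 8.06 CPM in WT and 6.04, 6.89 and 8.29 CPM in *Sirt7* KO mice (log2 fold change −0.12 ± 0.25, edgeR adjusted p = 0.909). Downstream, *Acot5* held no reads in any library and *Acot6* held 2 to 18 reads. The antisense gene *4732463B04Rik* (84039469 to 84053807, reverse strand) overlaps 9133 bases of *Acot4* and 1664 bases of *Acot3*, and it was at 7.71, 6.35 and 6.88 CPM in WT and 4.76, 1.17 and 1.45 CPM in *Sirt7* KO mice (log2 fold change −1.49 ± 0.48, edgeR adjusted p = 0.273). The library kit does not mark the strand, so reads of the antisense gene and of *Acot4* or *Acot3* cannot be told apart where they overlap. These 4 neighbours were named for their position after their values were seen.

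**Figure D4:**
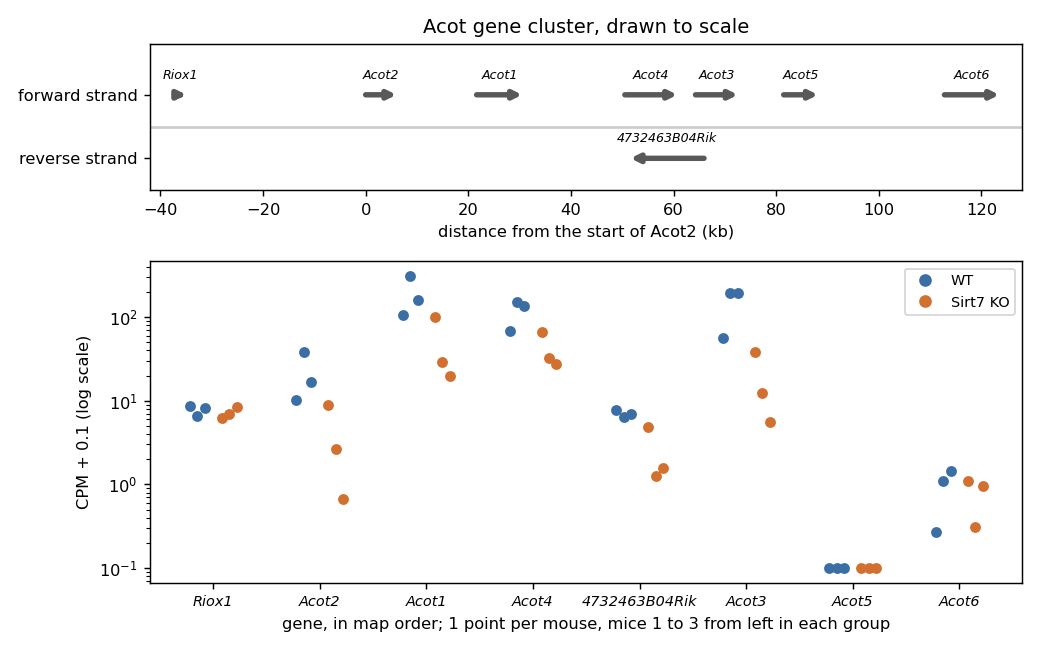
Upper panel, positions and strands of the *Acot* genes and their neighbours in kb from the start of *Acot2*, to scale; lower panel, CPM + 0.1 on a log axis for each mouse. *Acot1* to *Acot4* and the antisense gene *4732463B04Rik* show no overlap of the groups, *Riox1* and *Acot6* overlap, and *Acot5* is at 0 in all mice.

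The start regions of the members did not share a motif of the nuclear receptor type in its strict form. PPAR-alpha binds with RXR to a direct repeat of the half-site AGGTCA with 1 base between the copies. In windows from 250 bases before to 50 bases after the RefSeq start of each gene (GRCm38.p6, 9 of 9 members matched), the repeat AGGTCANAGGTCA on either strand was present in 0.04% of all 32851 windows and in none of the members, and a looser form, AGGNCANAGGNCA, was present in 0.381% of windows and again in none of the members. The half-site (AGGTCA, or TGACCT on the other strand), whatever its flanks, occurred in 16.3% of all windows and in 2 of the 9 members, *Acot4* and *Acot3*. The promoters of this pair are shown because the genes are neighbours with non-overlapping groups and were the 2 members that DESeq2 called. Each run gives the 250 bases before the start, 5′ to 3′ on the forward strand, with the half-site in capitals. It begins 13 bases before the start in *Acot4*, and in *Acot3* it falls after the start, outside the printed run.
Acot4 promoter, chr12:84038129-84038378, forward strand: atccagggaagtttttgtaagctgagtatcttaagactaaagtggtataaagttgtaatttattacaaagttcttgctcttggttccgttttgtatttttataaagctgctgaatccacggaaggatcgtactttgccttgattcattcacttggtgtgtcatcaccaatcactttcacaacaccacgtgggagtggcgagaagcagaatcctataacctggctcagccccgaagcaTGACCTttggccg
Acot3 promoter, chr12:84051894-84052143, forward strand: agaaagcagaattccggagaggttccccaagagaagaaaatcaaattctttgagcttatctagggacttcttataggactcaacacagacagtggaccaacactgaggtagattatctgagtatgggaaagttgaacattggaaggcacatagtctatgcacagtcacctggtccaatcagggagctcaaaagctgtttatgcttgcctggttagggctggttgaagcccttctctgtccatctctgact
Aligned over 212 bases, with gaps left out, these promoters were 57.5% identical, below the 76.0% of the coding sequences of the pair. The same measure gave 59.0% for the *Acot1* and *Acot2* promoters and 63.4% for those of *Acaa1a* and *Acaa1b*. Unrelated promoters were not measured, so how much of this identity is background cannot be told. The absence of the searched forms of the repeat in these short windows says nothing about other forms or about binding elsewhere in the loci.

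The other genes of the same pathways were counted from lists that also held the members, with the members left out. These lists too were chosen with earlier results of these data known. Of 90 such genes tested, none was called by edgeR and 5 by DESeq2 (2 with length offsets), 20 were lower at an unadjusted p under 0.05 and 5 were higher, where 4.73% of all genes were lower and 6.6% were higher. The count of lower genes was 6 without WT mouse 2 and 33 without *Sirt7* KO mouse 1. Without *Sirt7* KO mouse 1, 8.12% of all genes were lower at that threshold. In both directions, 1150 of all genes passed it without WT mouse 2, against 1419 with all mice.

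Within peroxisomal oxidation, 22 other genes were tested, and their median log2 fold change was 0.12. At an unadjusted edgeR p under 0.05, 3 were lower and 3 higher, where 4.73% of all genes were lower and 6.6% higher. The lowest ratios belonged to the carnitine acetyltransferase gene *Crat* (−1.24 ± 0.71, edgeR adjusted p = 0.61) and the acyltransferase gene *Acnat2* (−0.86 ± 0.16, adjusted p = 0.0825). At the other end were the CoA diphosphatase gene *Nudt7*, at 87.4, 184 and 167 CPM in WT and 251, 374 and 423 CPM in *Sirt7* KO mice (1.26 ± 0.30, adjusted p = 0.183), and the glycolate oxidase gene *Hao1* (0.60 ± 0.14, adjusted p = 0.137). DESeq2 called *Acnat2*, *Nudt7*, *Hao1* and *Ech1* (named after its value was seen) of this list, and only *Nudt7* with length offsets. *Nudt7* and *Hao1* had no overlap between groups, in the direction opposite to the members.

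Peroxisome biogenesis genes stayed close to 0, and *Pex11a* stood outside their range. The 18 others had a median log2 fold change of −0.08, none was called by edgeR or DESeq2, 0 were lower and 1 was higher at an unadjusted edgeR p under 0.05 (*Pex11g*, another gene of the PEX11 family, 0.50 ± 0.20, edgeR adjusted p = 0.37), and among the lowest was *Pex14* (−0.24 ± 0.14), which serves protein import. Of 9 transport genes, 1 was lower at that threshold, the very long-chain transporter gene *Abcd2* (−1.95 ± 0.80, adjusted p = 0.437), which was scarce at 0.212 to 15.3 CPM, and the median was −0.16. The next lowest was the acyl-CoA synthetase gene *Acsl1* (−0.63 ± 0.56), and the highest were the membrane protein genes *Pxmp2* (0.37 ± 0.17) and *Slc25a17* (0.33 ± 0.17).

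The 8 other acyl-CoA thioesterase genes tested had a median log2 fold change of −0.49. At an unadjusted edgeR p under 0.05, 4 were lower and 1 was higher, where 4.73% of all genes were lower and 6.6% higher. The smallest ratios were those of *Acot9*, a mitochondrial form (−0.68 ± 0.34, edgeR adjusted p = 0.497), and *Acot8*, a peroxisomal form (−0.68 ± 0.24, adjusted p = 0.322). *Acot11* was the gene on the other side, at 2.37, 4.81 and 6.14 CPM in WT and 5.59, 15.7 and 9.34 CPM in *Sirt7* KO mice (1.19 ± 0.44, adjusted p = 0.352). The groups of *Acot11* overlapped through *Sirt7* KO mouse 1.

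Other PPAR-alpha target genes had a median log2 fold change of −0.63, with 21 of 22 below 0. At an unadjusted edgeR p under 0.05, 8 were lower, where 4.73% of all genes were. The fatty acid omega-hydroxylase gene *Cyp4a14* was at 2751, 3182 and 2049 CPM in WT and 884, 268 and 82.8 CPM in *Sirt7* KO mice (−2.69 ± 0.96, edgeR adjusted p = 0.415), and *Cyp4a10* at 2740, 3366 and 3752 against 1774, 608 and 428 CPM (−1.81 ± 0.57, adjusted p = 0.34). In both genes the groups did not overlap, as in 5 of the 9 members. *Sirt7* KO mouse 1 was the highest of its group, as in all 9 members and in 38.3% of all genes tested. The order of the WT mice was not that of the members, with WT mouse 3 highest in *Cyp4a10* and lowest in *Cyp4a14*. *Pdk4* was the only gene of the list above 0 (0.34 ± 0.80). For the receptor and its partners, 4 of 11 were lower at that threshold with a median of −0.39. *Ppara* itself was at 100, 163 and 150 CPM in WT and 117, 83.0 and 77.4 CPM in *Sirt7* KO mice (−0.57 ± 0.22, edgeR adjusted p = 0.358), with *Sirt7* KO mouse 1 again inside the WT range. The coactivator gene *Ppargc1b* had −0.60 ± 0.29, and the highest were *Rxrb* (0.17 ± 0.19) and *Nr1h3* (0.08 ± 0.14).

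**Figure D5:**
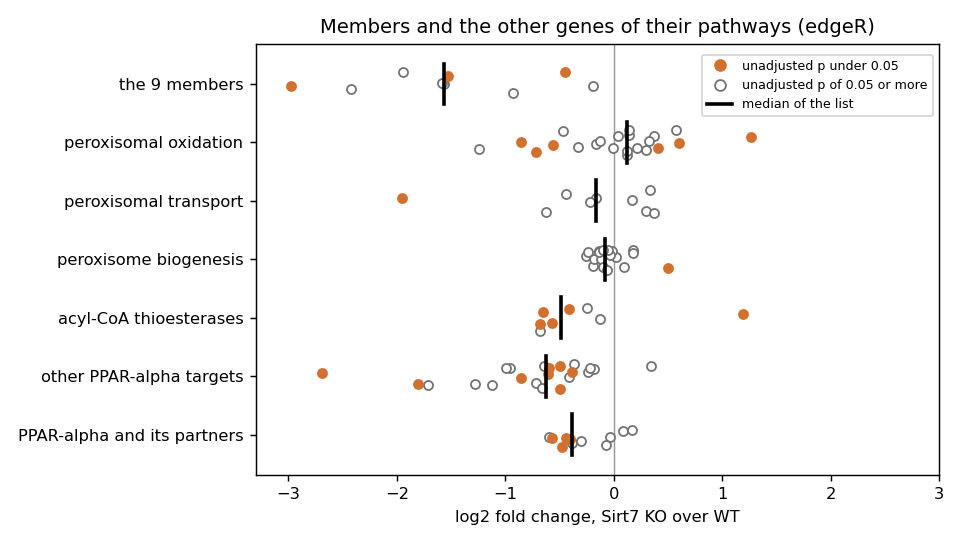
Log2 fold change (*Sirt7* KO over WT, edgeR) of the 9 members and of the other tested genes in 6 pathway lists; filled points have an unadjusted p under 0.05 and black bars are medians. The median is −1.57 for the members, 0.12 for the other peroxisomal oxidation genes, −0.08 for biogenesis and −0.63 for the other PPAR-alpha targets.

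The genes with a profile over the 6 mice nearest to the mean of the members were ranked by the root mean square difference of centred log2(CPM + 0.5), among 8899 genes with a mean of at least 50 counts. *Crat* was nearest, at 0.168, below the smallest value of any member itself (0.18). It was followed by the retinol saturase gene *Retsat* (0.209), the carnitine transporter gene *Slc22a5* (0.267), the pantetheinase gene *Vnn1* (0.315), the monoglyceride lipase gene *Mgll* (0.322), *Impa2* (0.331), *Spc25* (0.34) and *Gm45716* (0.358). The median over all candidates was 1.053, and the members ranged from 0.18 to 0.902. *Retsat*, for example, measured 928, 2195 and 1742 CPM in WT and 864, 270 and 300 CPM in *Sirt7* KO mice, with a log2 fold change of −1.76 ± 0.59 (edgeR adjusted p = 0.37). *Slc22a5* and *Vnn1* also stood on the list of PPAR-alpha targets, and *Crat* on that of peroxisomal oxidation. None of these 8 genes was called by edgeR, and 4 were lower at an unadjusted edgeR p under 0.05, where 4.73% of all genes were. DESeq2 called 1 (*Gm45716*) without length offsets, where 256 of all genes were called in both directions. With length offsets it called 2 (*Retsat* and *Mgll*), where 0.542% of all genes were called lower. The 8 genes were picked for a profile like that of the members, so these counts give no support of their own.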

How the data were processed

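Liver RNA of 3 WT and 3 *Sirt7* KO mice was read as single ends of 75 bases. Per the labels, Trim Galore 0.6.5 served for trimming and Salmon 1.2.1 for quantification, and the authors deposited estimated counts and TPM per transcript and mouse. Transcripts (140992 per mouse) were matched to GENCODE M21 on GRCm38, and 1201 without a gene, 0.303 to 0.492% of reads, were left out. Estimated counts were summed per gene, which for shared reads carries the quantifier's split, and rounded. Genes were filtered by filterByExpr (minimum count 10), scaled by TMM and tested with edgeR 4.0.16 (robust quasi-likelihood, Benjamini-Hochberg over 12524 genes, call at adjusted p under 0.05 and fold change over 1.5). DESeq2 1.42.0 on all genes with reads was an alternative, as were other scalings, filters, length offsets, a replicate block and leaving out each mouse. In a simulation drawing each gene independently with edgeR's spread estimates, false calls exceeded the nominal share with both tools, more so with DESeq2. It held no shift common to many genes of a mouse, so it cannot rate the calls made in these data. CPM values are counts per 1000000 TMM-scaled reads. Single values were compared by exact permutation with a pseudocount of 0.5 CPM. TPM served only for levels between genes.

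Named genes were the 9 members, the 2 largest positive and 2 largest negative fold changes per pathway list (fewer where the list had fewer), the 8 genes nearest in profile, and *Sirt7*. Values of some genes that this rule names are not reported here. The members and lists were chosen with earlier results of these data known. Besides the hepatocyte and erythroid lists, lists for cholangiocytes, macrophages, endothelial cells, stellate cells, lymphocytes, adipocytes and neutrophils overlapped between the groups in summed CPM. Replicates are separate mice.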

Additional observations from a re-analysis of the deposited data

How the results depend on the processing

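*Acot2* is the member with the least depth, 6 to 424 reads a mouse. The count of members called was 0, and it became 2 with DESeq2, 2 with DESeq2 and length offsets, and 2 at an unadjusted p under 0.05 with a fold change over 1.5. It was 0 to 1 when each mouse was left out, the 1 being *Pex11a* without *Sirt7* KO mouse 1. The count of members at an unadjusted p under 0.05 was 3, and it became 6 with DESeq2, 7 with DESeq2 and length offsets, 5 with edgeR and length offsets, 8 without the robust option (chosen after seeing the data), and 0 to 7 when each mouse was left out. Members without overlap, 5 with all mice, numbered 5 to 9 when a mouse was left out, also chosen after seeing the data. They were 8 without WT mouse 1 and 9 without *Sirt7* KO mouse 1, where the share of all genes lower without overlap went from 8.09% to 12.5% and 18.4%. The log2 fold change of *Crot*, −0.19, ran from −0.72 to 0.10 when each mouse was left out and was 0.02 without WT mouse 2 and 0.10 without *Sirt7* KO mouse 2, so 8 to 9 members were below 0 over these fits, and 9 in every other fit. The 25 genes called in all became 497 with no filter, 256 with DESeq2, 245 with DESeq2 and length offsets, 3 with edgeR and length offsets, 1 without the robust option, 882 at an unadjusted p under 0.05 with a fold change over 1.5, and 1 to 368 when each mouse was left out, 368 without *Sirt7* KO mouse 1. The 1419 genes at an unadjusted p under 0.05 became 2293 with no filter and 994 to 2217 when each mouse was left out. They numbered 1437 with DESeq2, 1496 with DESeq2 and length offsets, 1291 with edgeR and length offsets, and 1418 without the robust option. The other pathway genes lower at that threshold numbered 6 to 33 when each mouse was left out, and the higher ones 2 to 10, with 3 under total-count scaling. The cause of these changes was not tested.

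Whether the replicate numbers pair the mice could not be settled. Deviations from the group means correlated at 0.07, 0.08 and −0.04 for mice of the same number. WT mice 1 and 2 correlated best with their own number and WT mouse 3 did not. All these correlations were weak, from −0.1 to 0.08 over the pairings of a WT with a *Sirt7* KO mouse. With the replicate block 99 genes and 0 members were called, and 1 member had an unadjusted p under 0.05.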
